A study of Homo sapiens with 10 samples.

Results

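The 10 genes described here encode the contractile apparatus that fibroblasts build when they become myofibroblasts: ACTA2, TAGLN, CNN1, MYL9, MYLK, TPM1, TPM2, CALD1, SMTN and LMOD1. They are a functional group chosen by name, and all 10 were found by Ensembl identifier among the 14054 genes of the deposited count table. The table holds 10 libraries from MRC5, an established human lung fibroblast line. In 5 libraries (stretch 2, 4, 6, 8 and 10) the cells had received medium conditioned by stretched A549 cells, and in the other 5 (static 1, 3, 5, 7 and 9) medium conditioned by A549 cells that were not stretched. A549 is a lung adenocarcinoma line used as a stand-in for alveolar epithelium, so both groups were exposed to products of a tumour line. Both groups come from 1 fibroblast line, and no library of cells in unconditioned medium was used here. The sample descriptions give 24 hours of exposure and the series design gives 6 hours before RNA collection, so the duration is not settled. The labels do not say that libraries came from separate cultures, so each p-value rests on differences among these samples alone, which may be technical.

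A fibroblast becomes a myofibroblast when it assembles stress fibres that contain the smooth muscle form of actin, which lets it pull on the surrounding matrix. Force comes from myosin, whose regulatory light chain is phosphorylated by myosin light chain kinase, while tropomyosins, calponin and caldesmon bind along the actin filament and tune its access to myosin. Many of these genes share CArG boxes, the DNA element bound by serum response factor, whose coactivators of the MRTF family are held back by free actin monomers. In fibrotic lung, smooth muscle actin is the usual mark of the myofibroblast.

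RefSeq promoter windows on GRCh38.p14 were matched for 8 of the 10 genes, all but TAGLN and MYL9, in 16 windows of 250 bases before an annotated start. Both strands were searched for the CArG box, for the same box with 1 mismatch in its A/T core, and for CATTCC, the core of the element bound by TEAD factors. These motifs do not overlap each other in the windows shown. The strict CArG box lay in 2 of the 16 windows, in MYLK and SMTN, and in 1.16% of all 35116 promoter windows. The box with 1 core mismatch lay in 2 windows, in ACTA2 and CALD1, against 5.96% of all windows. CATTCC lay in 5 windows of 4 genes, ACTA2, CALD1, LMOD1 and SMTN, against 11.9% of all. The 3 windows below hold a CArG form and no annotated exon. They are printed because they show a CArG form next to a start site, with matches of any of the motifs in capitals and read on the gene's strand. Either CArG form was found for 4 of the 8 genes. The CALD1 window belongs to a RefSeq start outside the gene bounds given below, which are from GENCODE release 29.
ACTA2, chr10:88952774-88953023, minus strand: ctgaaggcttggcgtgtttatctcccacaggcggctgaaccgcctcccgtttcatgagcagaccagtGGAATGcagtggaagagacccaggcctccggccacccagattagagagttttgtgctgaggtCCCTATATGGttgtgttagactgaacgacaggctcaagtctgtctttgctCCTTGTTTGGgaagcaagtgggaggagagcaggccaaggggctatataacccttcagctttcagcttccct
CALD1, chr7:134711249-134711498, plus strand: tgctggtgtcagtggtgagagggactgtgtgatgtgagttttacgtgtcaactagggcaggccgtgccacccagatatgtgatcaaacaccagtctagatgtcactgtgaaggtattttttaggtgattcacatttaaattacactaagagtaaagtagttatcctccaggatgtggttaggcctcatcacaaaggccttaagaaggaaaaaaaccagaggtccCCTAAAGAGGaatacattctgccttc
SMTN, chr22:31084746-31084995, plus strand: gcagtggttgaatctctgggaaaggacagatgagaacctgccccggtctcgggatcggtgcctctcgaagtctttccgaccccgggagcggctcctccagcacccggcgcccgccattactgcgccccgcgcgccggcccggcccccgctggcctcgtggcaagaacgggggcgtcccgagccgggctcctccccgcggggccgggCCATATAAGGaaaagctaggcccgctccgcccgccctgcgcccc

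In the ACTA2 window the CArG forms began 121 and 71 bases before the start, and the CATTCC match, on the opposite strand, 183 bases before it. The SMTN box began 44 bases and the CALD1 form 26 bases before their starts. In MYLK the strict box CCTTTTATGG began 94 bases before a start at position 123620548 of chromosome 3, inside the gene, where the locus has an internal promoter for the short protein telokin. A match describes the sequence only, and counts summed over a gene do not tell which start was used.

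The cells carried the RNA of fibroblasts in every library. Libraries held 4231653 to 8455073 counts, and all 14 fibroblast markers checked were in the table, with summed levels of 14875 to 19387 CPM (a gene's count relative to its library's TMM-adjusted total) with stretch medium and 16768 to 18633 CPM with static medium. Of 12 markers of mature smooth muscle and pericytes 11 were in the table, summing to 599 to 664 CPM with stretch medium and 513 to 639 CPM with static medium. Within that list MCAM had 1172 to 2588 counts per library, ACTG2 767 to 1427, CSPG4 220 to 534 and NOTCH3 198 to 432. SYNM had 42 to 136 counts, RGS5 10 to 31 and KCNMB1 4 to 15. The smooth muscle myosin MYH11 had 0 to 5 counts and desmin, DES, 1 to 13. Of 16 markers of A549 cells and lung epithelium 8 were in the table, summing to 42.5 to 52.4 CPM with stretch medium and 36.9 to 48.4 CPM with static medium. Most of that sum came from the keratins KRT18, with 49 to 128 counts per library, and KRT19, with 53 to 109. CLDN4 had 26 to 73 counts, EPCAM 11 to 25 and the epithelial cadherin CDH1 0 to 4. Endothelial markers (4 of 5 in the table) summed to 48.4 to 68.2 CPM with stretch medium and 53.7 to 65.9 CPM with static medium. In that list TEK had 204 to 459 counts per library, KDR 15 to 59, PECAM1 1 to 19 and VWF 0 to 4. Leukocyte markers (3 of 5) summed to 183 to 233 CPM with stretch medium and 195 to 209.8 CPM with static medium. Of these CD68 had 888 to 1708 counts per library, CD14 4 to 15 and LYZ 4 to 19. Over 10 libraries, without centring, the summed CPM had a correlation with ACTA2 of 0.71 for the smooth muscle list, which itself holds CNN1 and LMOD1, and 0.65 for the epithelial list, against 0.24 for fibroblast markers, -0.34 for endothelial and -0.40 for leukocyte markers. The part of other cells in the results below was not tested. In RNA from whole cultures, fewer cells expressing a gene and less RNA per cell cannot be told apart.

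Smooth muscle actin, its partner TAGLN and the myosin kinase MYLK had higher levels with stretch medium in most libraries. The tropomyosin genes TPM1 and TPM2 and LMOD1 had lower ones, but none of the 10 genes passed the test over the whole table. In edgeR's quasi-likelihood test with Benjamini-Hochberg adjustment, 0 of the 10 had an adjusted p under 0.05, against 0% of the 10968 genes tested. All 10 passed the filter on low counts. The log2 fold change (stretch minus static medium) was above 0 for 7 and below 0 for 3, with a median of 0.20, beside a median of 0.00035 over all genes tested. At an unadjusted p under 0.05 there were 3 members higher with stretch medium and 0 lower, against 8.08% of all genes higher and 8.37% lower. The smallest adjusted p was 0.206, for MYLK, and the largest 0.852, for CNN1. DESeq2 called 0 of the members, against 2.84% of the genes to which it gave an adjusted p, and limma-voom called 0, against 0.00912%. Groups that did not overlap were found for 0 members, against 3.72% of all genes, of which 1.74% were higher and 1.98% lower with stretch medium.

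**Figure D1:**
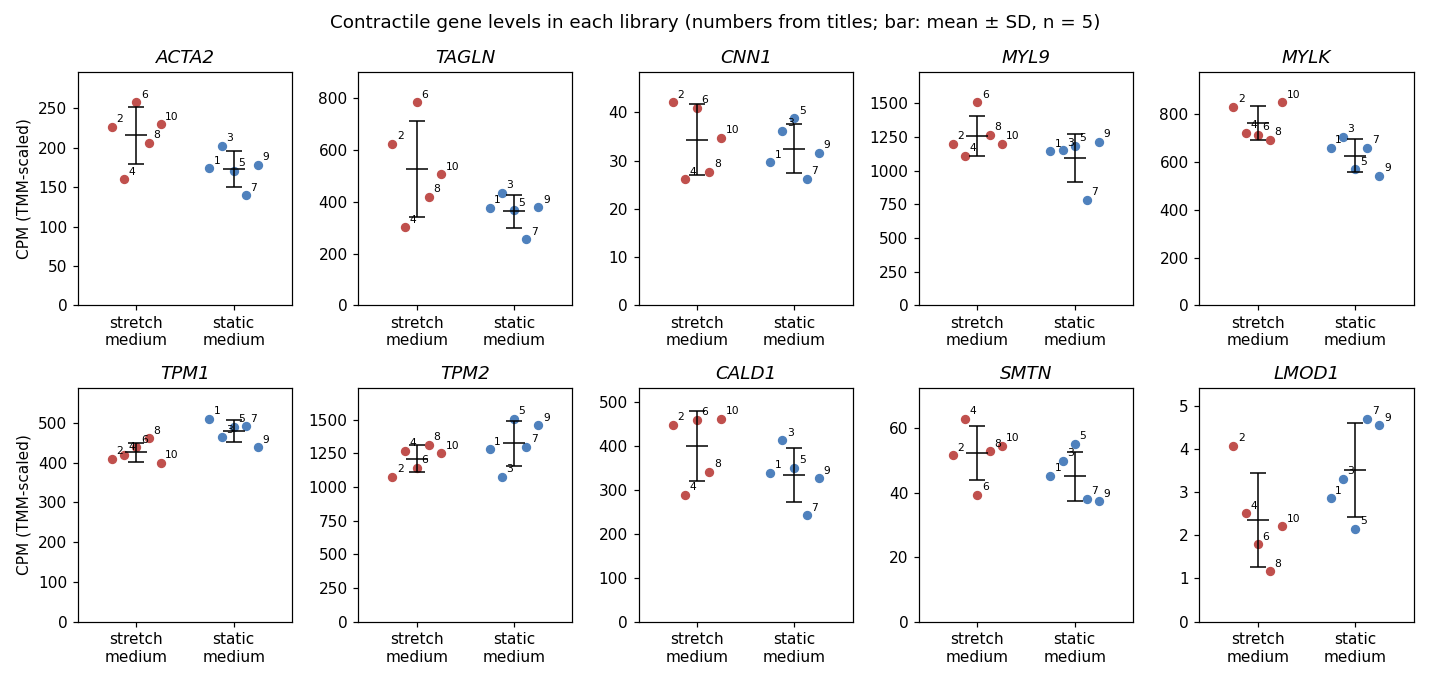
CPM (TMM-scaled, vertical axes from 0) of the 10 contractile genes in each library, stretch medium left and static medium right, with the library number beside each point and a bar for the mean ± SD (n = 5). In every panel the groups overlap, and static 7 is the lowest library for ACTA2, TAGLN, MYL9 and CALD1.

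**Figure D2:**
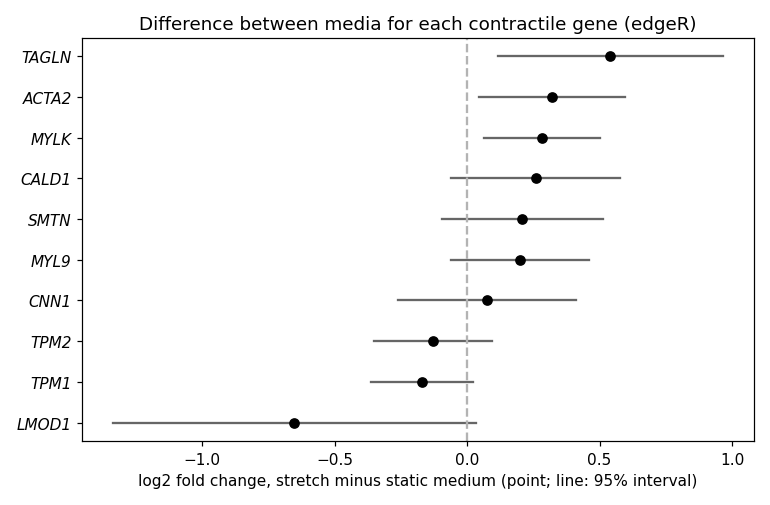
Log2 fold change, stretch minus static medium, of each contractile gene with its 95% interval from edgeR. The intervals of TAGLN, ACTA2 and MYLK lie above 0 and the other 7 span 0.

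ACTA2 encodes smooth muscle alpha-actin, the defining protein of myofibroblast stress fibres (chromosome 10, 88935074 to 88991339, minus strand, GENCODE release 29 on GRCh38). It was at 227, 160.1, 258, 207 and 229.7 CPM in stretch libraries 2, 4, 6, 8 and 10, against 174, 203, 171, 139.5 and 179 CPM in static libraries 1, 3, 5, 7 and 9. Apart from stretch 4, each stretch library was above the highest static library. The means were 216 ± 36.3 CPM with stretch medium and 173 ± 22.6 CPM with static medium (SD, n = 5 each). This gave a log2 fold change of 0.32 ± 0.13 (SE), with an interval of 0.05 to 0.60 and an edgeR adjusted p of 0.244. Leaving out 1 library moved the fold change to between 0.25 (without stretch 6) and 0.41 (without stretch 4), and the smallest adjusted p, without stretch 4, was 0.1004. The gene's bounds overlap those of STAMBPL1 and FAS on the other strand, and whether the counting used strand is not given in the sources used here.

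Transgelin, the product of TAGLN, is an actin-bundling protein of smooth muscle and an early marker of its differentiation (chromosome 11, 117199321 to 117204782, plus strand, overlapping PCSK7 on the other strand). In the same library order TAGLN was at 624, 302, 785, 421 and 507 CPM with stretch medium, against 378, 435, 367, 256 and 379 CPM with static medium. Stretch 6 was 3.07 times the lowest library, static 7, and only stretch 4 and 8 fell within the static range. Of the 7 members with a positive difference it had the largest, a log2 fold change of 0.54 ± 0.20 (0.12 to 0.97, edgeR adjusted p = 0.208). Leaving out stretch 6 gave 0.35, and leaving out stretch 4 gave 0.69 with an adjusted p of 0.0692, the smallest reached by any member in any alternative.

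Calponin and caldesmon both bind actin filaments and restrain the myosin ATPase. CNN1, the smooth muscle calponin gene (chromosome 19, 11538717 to 11550323), was at 42.1, 26.2, 41.0, 27.7 and 34.8 CPM with stretch medium, against 29.7, 36.2, 38.7, 26.2 and 31.7 CPM with static medium. Its groups lay across the same range, and the log2 fold change was 0.076 ± 0.16 (-0.26 to 0.41). It was -0.0045 without stretch 2 and 0.16 without stretch 4. CALD1, the caldesmon gene (chromosome 7, 134744252 to 134970728), was at 447, 288, 459, 340.0 and 461 CPM, against 339, 412, 349.6, 242 and 325 CPM. The stretch libraries 2, 6 and 10 were above all static libraries, and stretch 4 was below all static libraries but static 7. The log2 fold change of CALD1 was 0.26 ± 0.15 (-0.06 to 0.58, edgeR adjusted p = 0.408), or 0.16 without static 7.

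Tropomyosins are coiled-coil dimers that lie along actin filaments. TPM1 (chromosome 15, 63042632 to 63071915) was at 409, 420.1, 439, 461 and 399.7 CPM with stretch medium, against 511, 464, 490.4, 492 and 438 CPM with static medium. Here 3 stretch libraries were below the lowest static library. The means were 426 ± 24.6 CPM with stretch medium and 479 ± 28.2 CPM with static medium (SD, n = 5 each), a log2 fold change of -0.17 ± 0.09 (-0.36 to 0.02, edgeR adjusted p = 0.365). TPM2 (chromosome 9, 35681992 to 35690121) was at 1075, 1271, 1145, 1316 and 1253 CPM, against 1281, 1079, 1509.7, 1299 and 1459 CPM, and its log2 fold change was -0.13 ± 0.11 (-0.35 to 0.09), with -0.20 without static 3 and -0.078 without static 5. The static libraries of TPM2 spanned a wider range than the stretch libraries and included all but the lowest of them.

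MYL9 encodes the regulatory light chain that the kinase phosphorylates (chromosome 20, 36541484 to 36551447). It was at 1200.2, 1109.8, 1507, 1266 and 1198 CPM with stretch medium, against 1144, 1152, 1184, 782 and 1212 CPM with static medium. Stretch 6 was high and static 7 low, while the other 8 libraries lay between 1109.8 and 1266 CPM. The log2 fold change was 0.20 ± 0.12 (-0.06 to 0.46), and 0.10 without static 7. MYLK, the kinase itself (chromosome 3, 123610049 to 123884331), was at 832, 722, 714, 694 and 849 CPM, against 659, 704, 569, 658 and 543 CPM. Stretch 8 was the only stretch library below the highest static library. The means of MYLK were 762 ± 72.4 CPM with stretch medium and 627 ± 67.8 CPM with static medium (SD, n = 5 each), a log2 fold change of 0.28 ± 0.10 (0.06 to 0.50, edgeR adjusted p = 0.206). With 1 library left out it stayed between 0.23 and 0.32.

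SMTN encodes smoothelin, an actin-binding protein of contractile smooth muscle (chromosome 22, 31064105 to 31104757). It was at 51.6, 62.9, 39.3, 52.7 and 54.5 CPM with stretch medium, against 45.3, 49.8, 55.0, 38.1 and 37.3 CPM with static medium. Its highest library was stretch 4, the library with low ACTA2, TAGLN, CNN1 and CALD1, and stretch 6 was near its low end (log2 fold change 0.21 ± 0.14, -0.10 to 0.51, and 0.13 without stretch 4). LMOD1, a leiomodin that nucleates actin filaments in smooth muscle (chromosome 1, 201896452 to 201946588), was close to the limit of detection, with 9 to 36 counts per library. It was at 4.07, 2.50, 1.79, 1.16 and 2.21 CPM with stretch medium, against 2.86, 3.30, 2.15, 4.70 and 4.55 CPM with static medium. Stretch 6 and 8 were below all static libraries, and the log2 fold change was -0.65 ± 0.32 (-1.34 to 0.03, edgeR adjusted p = 0.326). A floor of 3 counts corresponded to 0.355 to 0.709 CPM. Each target is amplified with its own primers and CPM is not divided by length. Levels of the 10 genes were therefore not compared with each other.

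The 10 genes differed widely in how much they varied between libraries of the same medium. The SD of log2 CPM within groups was 0.084 for TPM1, lower than in all but 0.611% of the genes tested, and 0.147 for MYLK and 0.159 for TPM2, at percentiles 12.02 and 16.2. It was 0.425 for TAGLN, at percentile 88.1, and 0.51 for LMOD1, at percentile 94.05, where few counts add to the spread. ACTA2 (0.228), MYL9 (0.220), SMTN (0.242), CNN1 (0.271) and CALD1 (0.294) lay nearer to the median of all genes, 0.249. The coefficient of variation of TAGLN was 35.3% with stretch medium and 18.0% with static medium, and for TPM1 it was 5.78% and 5.88%.

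ACTA2, TAGLN, CNN1 and CALD1 varied together from library to library, with 5 of their 6 pairs past the adjusted threshold for r. No pair with MYL9, MYLK, a tropomyosin, SMTN or LMOD1 passed, and the closest was TAGLN with MYL9 (r = 0.74, permutation p = 0.00968, adjusted p = 0.0622). Correlations were computed over 10 libraries on log2 CPM centred on each group's mean, so that a difference between the media did not enter them. For ACTA2 and TAGLN Pearson's r was 0.95 (permutation p = 0.00034, adjusted p = 0.0153 over 45 pairs) and Spearman's rho 0.85 (permutation p = 0.0104, adjusted p = 0.160). Without static 7 and stretch 6, the 2 libraries farthest from the median of ACTA2 before centring, r was 0.92. That check kept stretch 4, the library farthest from its group mean for ACTA2 (-0.41 on the log2 scale) and TAGLN (-0.73). For ACTA2 and CALD1 r was 0.94 (permutation p = 0.00145, adjusted p = 0.02235) and rho 0.92 (permutation p = 0.00247, adjusted p = 0.111), with r of 0.92 without the same 2 libraries. TAGLN and CALD1 had r of 0.90, TAGLN and CNN1 0.87, and CNN1 and CALD1 0.87, with adjusted permutation p of 0.02235, 0.0332 and 0.0465. Their rho were 0.71, 0.85 and 0.79, with adjusted permutation p of 0.2505, 0.160 and 0.160. Without the 2 libraries farthest from the median of the first gene before centring, their r were 0.96, 0.78 and 0.84. For TAGLN these were stretch 6 and stretch 2, so its lowest libraries, static 7 and stretch 4, were kept.

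These were the 5 of 45 pairs that passed for r, and 0 passed for rho. Among ACTA2, TAGLN, CNN1, CALD1 and MYL9, a grouping made after the correlations were seen, the 10 pairs had r from 0.59 to 0.95 with a median of 0.83. The 25 pairs between them and the other 5 genes ran from -0.45 to 0.34, and the 10 pairs within the other 5 from -0.74 to 0.38. The median over all 45 pairs was -0.036, against -0.001 over all pairs of tested genes. Of all pairs of tested genes 0.119% had r over 0.9, as had 2 of the 45. At or over the lowest r of the 10 pairs were 6.56% of all pairs. Because the 10 were grouped after their r was seen, that share does not test them. The most negative pair was MYLK and TPM2, at r = -0.74 (permutation p = 0.0293, adjusted p = 0.147; rho = -0.78, adjusted p = 0.160), or -0.50 without the 2 libraries farthest from the median of MYLK. TPM1 and TPM2, which encode related proteins, had r of 0.10 (permutation p = 0.793, adjusted p = 0.973) and rho of -0.018.

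**Figure D3:**
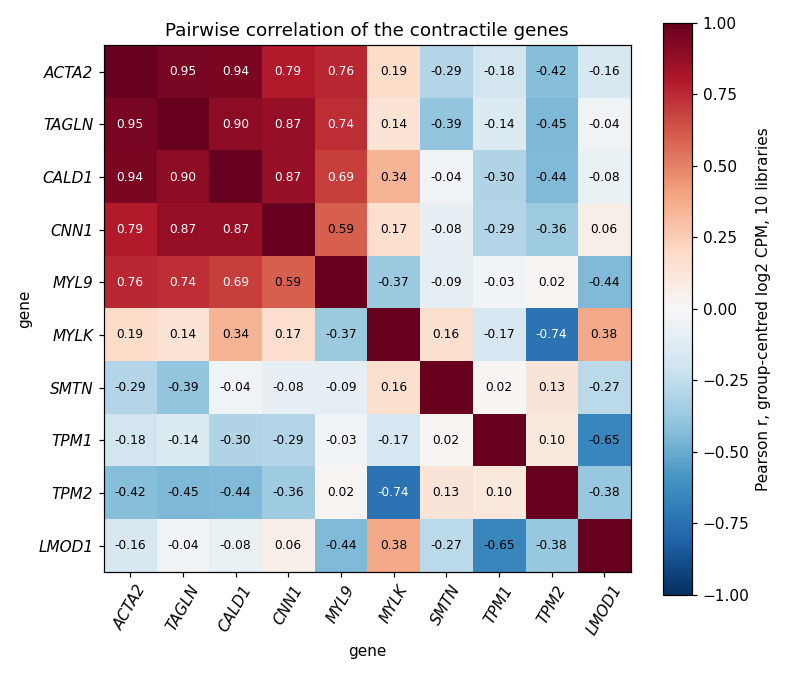
Pearson correlation of each pair of contractile genes over 10 libraries (group-centred log2 CPM, colour from -1 to 1, genes on both axes). ACTA2, TAGLN, CALD1, CNN1 and MYL9 form a block with r from 0.59 to 0.95, and the pairs of these with the other 5 genes lie between -0.45 and 0.34.

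The libraries farthest from their group means were 1 of each medium. Averaged over the 5 genes, stretch 4 was at -0.42 and static 7 at -0.40 on the log2 scale relative to their own group means, and stretch 6 was the highest at 0.34. With stretch 4 and static 7 both left out, the 10 pairs had r from 0.030 to 0.86, with a median of 0.65. Of all 45 pairs, 0 had an adjusted permutation p under 0.05 without static 3, stretch 4, stretch 6, static 7 or stretch 8. The number was 1 without stretch 2, 3 without static 9, 4 without static 1 or stretch 10, and 6 without static 5. The 4 without stretch 10 included MYLK with TPM2.

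**Figure D4:**
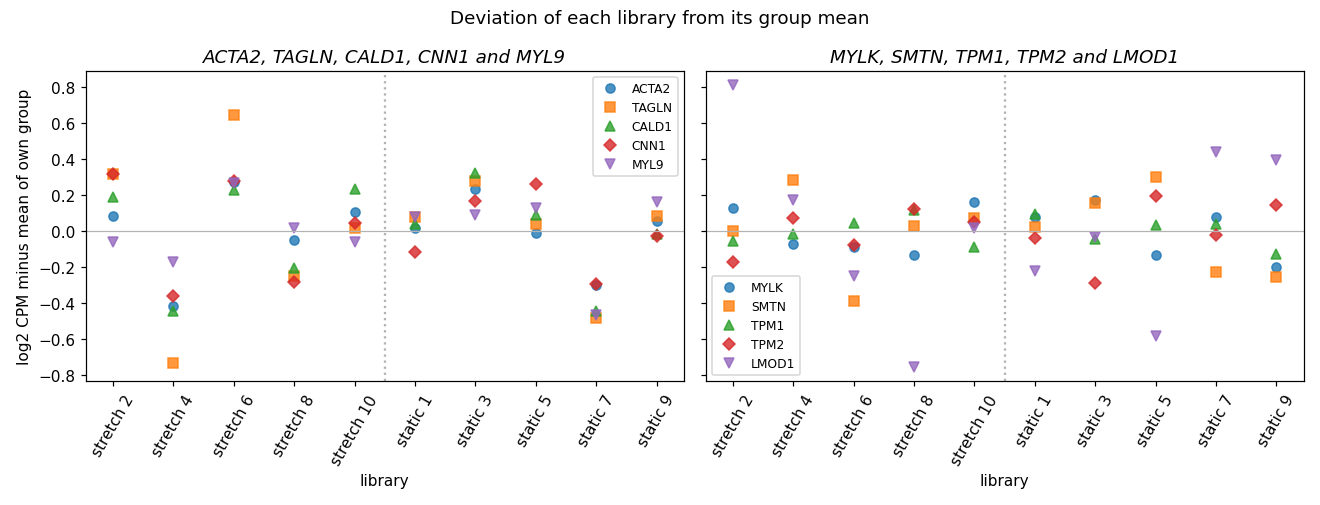
Deviation of each library from the mean of its own group in log2 CPM, stretch libraries left of the dotted line and static libraries right. In the left panel ACTA2, TAGLN, CALD1, CNN1 and MYL9 are all below 0 in stretch 4 and static 7, and in the right panel the other 5 genes lie on both sides of 0 in each of these libraries.

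The block followed the main axis of variation of the whole table. The first principal component of group-centred log2 CPM over all tested genes held 22.5% of the variance, and its lowest libraries were static 7 (score -0.56) and stretch 4 (-0.52) and its highest stretch 6 (0.50). Its correlation over 10 libraries was 0.95 with TAGLN, 0.93 with ACTA2, 0.86 with MYL9, 0.86 with CALD1 and 0.74 with CNN1, and between -0.37 and 0.04 with the other 5 genes. These are descriptions, since the genes enter the component and share their libraries and scaling. With ACTA2 alone, 59 of the other genes tested had r over 0.9, or 0.538%, and TAGLN ranked 9 and CALD1 14 among 10967. None of the relations with depth passed the test. The members' group-centred correlations with the log2 total count ran from -0.42 to 0.27, with the number of genes above 0 from -0.42 to 0.26, and with the share of the 10 most abundant genes from -0.51 to 0.52. The smallest of these 30 adjusted permutation p was 0.978.

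The mean pattern of the 10 members was taken over their standardised group-centred values. Over 10 libraries the highest r outside the members was 0.98, for SUN2, which encodes a nuclear envelope protein that links the nucleus to the cytoskeleton. It was followed by NRP1, a co-receptor for semaphorins and vascular endothelial growth factor (0.96), the unnamed identifier ENSG00000204197 (0.95), the retinoid X receptor gene RXRA (0.95) and DMAP1, a chromatin and DNA methylation cofactor (0.95). Spearman's rho for these 5 was 0.85 to 0.95, and r without the 2 libraries farthest from the median was 0.83 to 0.96. NRP1 was at 449 ± 71.2 CPM with stretch medium and 330.4 ± 59.3 CPM with static medium (SD, n = 5 each), a log2 fold change of 0.44 ± 0.14 with an edgeR adjusted p of 0.149. Among the members themselves, which enter the pattern, CALD1 had the highest correlation with it, 0.97, and TPM2 the lowest, -0.38. It was 0.91 for CNN1, 0.89 for TAGLN, 0.89 for ACTA2 and 0.72 for MYL9. For MYLK it was 0.27, for SMTN 0.04, for LMOD1 -0.14 and for TPM1 -0.16. The pattern was thus mainly that of CALD1, CNN1, TAGLN, ACTA2 and MYL9.

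Ratios within a library do not depend on scaling. ACTA2 made up 4.36%, 2.39%, 3.44%, 3.22% and 3.37% of the summed ACTA2 and ACTB counts in stretch libraries 2, 4, 6, 8 and 10, against 2.82%, 3.66%, 2.62%, 2.20% and 2.65% in static libraries 1, 3, 5, 7 and 9. Only stretch 2 was above all static libraries. ACTB, the cytoplasmic beta-actin, was at 6307 ± 831 CPM with stretch medium and 6090.1 ± 472 CPM with static medium (SD, n = 5 each). The mean shares of ACTA2 were 3.36% ± 0.70 with stretch medium and 2.79% ± 0.54 with static medium (SD, n = 5 each), and the difference of 0.57 percentage points did not pass (two-sided p = 0.190 by exact permutation, 0.571 when adjusted over 3 shares). With 1 library left out the difference ran from 0.32 points (without stretch 2, exact permutation p = 0.381) to 0.81 points (without stretch 4, exact permutation p = 0.0635). The smallest p this design can give is 0.00794.

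The tropomyosin pool, counted over TPM1, TPM2, TPM3 and TPM4, showed no difference in make-up that passed the test. TPM1 held 9.98% ± 0.75 of it with stretch medium and 10.03% ± 0.78 with static medium (SD, n = 5 each), with an exact permutation p of 0.929, also after adjustment. TPM2 held 28.3% ± 1.11 with stretch medium and 27.6% ± 2.32 with static medium (SD, n = 5 each), with an exact permutation p of 0.548, adjusted to 0.821. That difference of 0.71 points was 0.17 without static 3 and 1.496 without static 5. TPM3 was at 1305 ± 141 CPM with stretch medium and 1398 ± 161 CPM with static medium (SD, n = 5 each). All 4 tropomyosin genes had a log2 fold change below 0, from -0.25 ± 0.10 for TPM4 to -0.10 ± 0.11 for TPM3, and 0 passed edgeR's adjusted threshold. Shares rest on amplified targets of unequal efficiency and are compared between libraries only. Tropomyosin, actin and light chain genes have close relatives, and reads of near-identical stretches could have been split between them.

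Around the 10 genes, other parts of the contractile system had differences of both signs, none past edgeR's adjusted threshold. Of 28 other smooth muscle and thin filament genes 15 were tested, with 3 above 0 and 12 below 0 and a median log2 fold change of -0.17. The 3 with the smallest p were lower with stretch medium. CNN3, the widely expressed acidic calponin, was at 327, 349, 281, 365 and 363 CPM with stretch medium, against 391, 407, 411, 393 and 414 CPM with static medium, and its groups did not overlap. Its log2 fold change was -0.26 ± 0.10 (edgeR adjusted p = 0.210). Groups that did not overlap were found for 1 gene tested in this list, against 3.72% of all genes tested. The lists of non-muscle actomyosin genes and of transcription regulators below had 0 such genes. TPM4, a non-muscle tropomyosin, was at -0.25 ± 0.10 and the LIM protein gene CSRP2 at -0.23 ± 0.11. ACTG2, the gamma smooth muscle actin and nearest relative of ACTA2 in this list, was at 171 ± 10.4 CPM with stretch medium and 181 ± 19.3 CPM with static medium (SD, n = 5 each).

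Of 23 non-muscle actomyosin genes 18 were tested, 9 above 0 and 9 below 0, with a median of 0.0016. Filamin C, FLNC, an actin cross-linker found in muscle and in strained cells, was at 949, 754, 1178, 931 and 1053 CPM with stretch medium, against 848, 845, 670.3, 606 and 599 CPM with static medium. Stretch 4 was its lowest stretch library, as for ACTA2. Its log2 fold change was 0.45 ± 0.13 (edgeR adjusted p = 0.139). The alpha-actinin gene ACTN4 was at 0.29 ± 0.12 and the non-muscle myosin heavy chain gene MYH9 at 0.23 ± 0.11.

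Of 30 transcription regulators of contractile genes 20 were tested, 14 above 0 and 6 below 0, with a median of 0.11. MRTFA, the actin-sensing coactivator of serum response factor, was at 75.6, 69.1, 79.1, 81.2 and 77.8 CPM with stretch medium, against 70.1, 70.3, 60.3, 39.0 and 45.5 CPM with static medium. Stretch 4 was the only stretch library within the static range. Its log2 fold change was 0.43 ± 0.15 (edgeR adjusted p = 0.184). TEAD1, a partner of the coactivators YAP and TAZ, was at 19.7, 50.8, 16.0, 23.4 and 32.8 CPM, against 38.5, 41.9, 62.1, 60.6 and 40.7 CPM. Its log2 fold change of -0.78 ± 0.25 had an edgeR adjusted p of 0.154. Without stretch 4, the highest stretch library for TEAD1, the edgeR adjusted p was 0.0362, in a fit that called 39 genes over the whole table. In the other fits with 1 library left out, no gene of this list was called. TEAD3, of the same family as TEAD1, had a log2 fold change of 0.29 ± 0.12. In the 3 lists 0 of 53 genes tested passed edgeR's adjusted threshold over all genes, and DESeq2 and limma-voom called 0, against 2.84% and 0.00912% of all genes. At an unadjusted p under 0.05 there were 5 higher and 4 lower, or 9.43% and 7.55%, near the 8.08% and 8.37% over all genes. The gene of serum response factor itself was among the 30 names, and no value for it is given here.

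**Figure D5:**
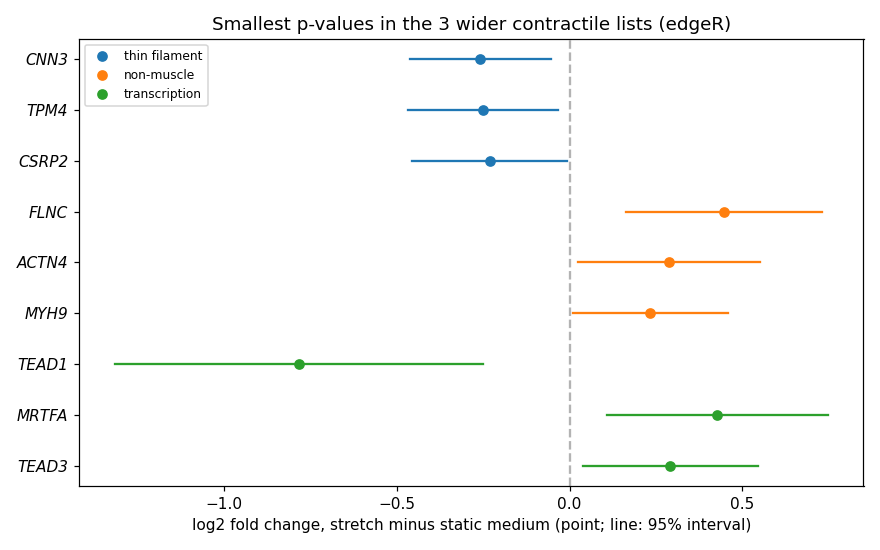
Log2 fold change, stretch minus static medium, with 95% intervals, of the 3 genes with the smallest p in each of 3 lists around the contractile genes (colours mark the lists). The genes were picked by p, and none passed edgeR's adjusted threshold over all genes.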

How the data were processed

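The authors deposited an unscaled table of integer counts by Ensembl identifier for 10 libraries. Per the labels' protocols, RNA was extracted with Trizol and sequenced with Ion AmpliSeq Transcriptome reagents, a kit based on multiplex PCR of short targets. No molecular identifier is named there, and floors reflect counting error alone. The submitters' processing notes list fastp 0.20.1, Salmon 1.9 and hg38, without their roles. The sources used here do not give the annotation, the use of strand or how values became whole. The table held no gene above 0 in fewer than 5 libraries.

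Columns were matched to samples by the number in the title. The test used edgeR 4.0.16 under R 4.3.3 (filterByExpr, TMM, quasi-likelihood test, stretch minus static medium, Benjamini-Hochberg, threshold 0.05), and with DESeq2 1.42.0 and limma-voom 3.58.1 as alternatives. The fit was checked on simulated data. Symbols were found for 13625 identifiers and 429 had none. Log2 CPM used a prior count of 2, intervals are 95% intervals, and correlations were tested by 100000 permutations of libraries within groups. Members and lists were chosen with earlier results of these data known. Named were the members, the 3 smallest p of each list, the 5 genes closest to the members' mean pattern, and the other genes of each share. ACTG1 was not analysed here, so the actin share used ACTB alone, and 1 further gene list is not reported here. Each library was left out in turn. Other alternatives were library scaling, count filters, a threshold of 0.1, the title number as covariate, and correlation settings.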

Additional observations from a re-analysis of the deposited data

Results flagged for a closer look

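MYL9 in static 7 stood apart from the other static libraries, at 782 CPM, where the other 4 lay between 1144 and 1212 CPM. The gap to its nearest neighbour was 0.843 of the group's range, above the limit of 0.71 for 5 libraries. Of 26 groups checked (10 genes and 3 shares in each medium) this was the 1 found, and chance alone gives about 1 in 20. Static 7 was also the lowest library for ACTA2, TAGLN and CALD1.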

How the results depend on the processing

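Of 178 values of single members under other settings, 177 kept the sign of the log2 fold change and stayed over the threshold, and CNN1 changed sign without stretch 2 (-0.0045, with 0.155 as the highest value when another library was left out). The count of members called was 0 in each of the 19 alternatives. The median log2 fold change of the members lay between 0.19 and 0.22 over other scalings, filters and tests and between 0.13 (without static 7) and 0.24 with 1 library left out. Over the whole table edgeR called 0 genes, and 61 at a threshold of 0.1. DESeq2 called 275, limma-voom 1, and edgeR 0 to 39 with 1 library left out (39 without stretch 4, 2 without stretch 6, 1 without stretch 10). For transcription regulators the count was 0 to 1 with 1 library left out, with the 1 without stretch 4. The median r over the 45 member pairs, -0.036, was 0.011 with library totals and -0.075 to 0.099 with 1 library left out, above 0 without stretch 4 (0.064), stretch 6 (0.099) and static 7 (0.095). Alternatives for counts of pairs and for ACTA2, TAGLN, CNN1, CALD1 and MYL9 were added after seeing the data: their median r of 0.83 was 0.75 with Spearman's rho and 0.65 without stretch 4 and static 7. Pairs past the adjusted threshold, 5 with Pearson's r, were 0 with Spearman's rho, 5 to 6 with other scalings or prior count and 0 to 6 with 1 library left out. The difference in TPM1 share, -0.050 points, was -0.35 to 0.19 with 1 library left out and above 0 without static 1 (0.034), static 3 (0.177), stretch 4 (0.115) and stretch 10 (0.186). The cause of these changes was not tested. LMOD1 gave no value under the filter of 50 counts and no adjusted p in DESeq2. No paired analysis was run, because the labels state no pairing and the groups share no replicate number. Whether libraries were paired is therefore not known. Amplified counts of 5 libraries a group limit the precision, most for LMOD1.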

Other observations

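Several genes of the wider lists followed ACTA2, or ran opposite to it, from library to library after group means were removed. Over 10 libraries ACTN4 had r of 0.84, FLNC 0.81 and MRTFA 0.58 with ACTA2, while TEAD1 had -0.79. Adjusted over 12 genes compared, 6 passed, and of the 9 genes given here these were the 4 that did. Such r with ACTA2 were common over the whole table. Among 10967 other genes, CNN1 at r of 0.79 ranked 364 and MYL9 at 0.76 ranked 525, so MRTFA ranked lower still. The share of all genes that would pass was not computed. The adjusted permutation p was 0.0253 for ACTN4 and FLNC, 0.0397 for TEAD1 and 0.0400 for MRTFA. Spearman's rho was 0.61 for ACTN4, 0.76 for FLNC, 0.37 for MRTFA and -0.71 for TEAD1, with adjusted permutation p of 0.154 or more. Static 7 and stretch 6 were the 2 libraries farthest from the median of ACTA2 before centring. Without them, and with stretch 4 kept, r was 0.81 for ACTN4, 0.69 for FLNC, 0.34 for MRTFA and -0.70 for TEAD1. The other 5 genes, CNN3, TPM4, CSRP2, MYH9 and TEAD3, had r between -0.42 and 0.44 and adjusted permutation p from 0.304 to 0.840.

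The genes with the highest r with ACTA2 over 10 libraries were PSMB4, a proteasome subunit gene (0.97), IMPDH1, a guanine nucleotide synthesis enzyme (0.97), and ZER1, a ubiquitin ligase adaptor (0.97), picked here for that value. The depth, scaling and libraries are shared by all genes compared, and these values describe the 10 libraries.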
